A study of Mus musculus with 8 samples.

Results

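The retinoid, vitamin D and RXR receptor genes described here are 10 genes: the retinoic acid receptors Rara, Rarb and Rarg, the retinoid X receptors Rxra and Rxrb, the vitamin D receptor Vdr, the thyroid hormone receptor Thrb, the retinoic acid binding proteins Crabp1 and Crabp2, and the retinoic acid hydroxylase Cyp26b1. They were chosen by symbol from a table of 78298 canonical transcripts, with earlier results of these data known. Each symbol had a single transcript in the table, so the transcript did not have to be chosen by its count. The libraries are poly(A) RNA-seq of NIH3T3, an immortalized mouse embryonic fibroblast line with a wild-type genotype label, grown in serum-containing medium. In 4 libraries the cells received vehicle and in 4 they received Mic-628, the compound that the series title calls an inducer of Period1. The treatment day is given as 1 for all 8 libraries. The dose of Mic-628 is not given in the sources used here. A batch number from 1 to 4 joins 1 vehicle and 1 Mic-628 library, and no label says whether replicates are separate cultures. The p-values therefore rest on the spread between the 8 libraries, part or all of which may be technical.

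Retinol, a form of vitamin A, is taken up from the blood, oxidized to retinaldehyde and then to retinoic acid. Retinoic acid binds RAR, vitamin D binds VDR and thyroid hormone binds TR, and each of these receptors binds DNA as a heterodimer with RXR at paired copies of a short hexamer. CRABP proteins carry retinoic acid inside the cell, and CYP26 enzymes break it down. In fibroblasts and other mesenchymal cells this system is known for its part in patterning and in matrix production.

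The libraries held 18.1 M to 23.2 M counts (M, mega) on listed transcripts. Of 13 fibroblast markers 11 were expressed highly enough to test, and their summed FPKM (a level scaled for exon length and library total) was 5095 to 5274 with vehicle and 4444 to 4559 with Mic-628. In this list 0 genes were called higher and 5 lower: Col1a2, Col3a1, Fn1, Vim and Dcn. Over all tested transcripts 2.13% were called higher and 2.25% lower. The most abundant, Vim, went from 2127 to 1831 FPKM, and Fn1 from 1599 to 1320 FPKM. The 6 not called were Lum (log2 fold change -0.51), S100a4 (-0.10), Col1a1 (-0.0044), Thy1 (0.0031), Pdgfra (0.03) and Pdgfrb (0.01). Lum, low in level, ranged from 0.49 to 0.599 FPKM with vehicle and from 0.323 to 0.424 FPKM with Mic-628 (edgeR adjusted p = 0.141). Fap had no count in any library, and Postn was close to absent at 0.046 FPKM. Summed FPKM over the 8 libraries was 1.85 to 2.71 for 7 epithelial markers, 8.02 to 9.60 for 7 macrophage and blood cell markers, 0.184 to 0.348 for 5 endothelial markers and 0.350 to 1.06 for 5 adipocyte markers. It was 3.98 to 5.44 for 6 muscle markers and 0.200 to 0.665 for 5 neuronal markers. Adgre1, Cd3e, Adipoq, Lep, Myod1, Myog, Rbfox3 and Nefl had no count in any library. None of these 6 lists had a member called by edgeR, DESeq2, limma-voom or limma-trend. Members tested numbered 2, 2, 1, 1, 2 and 0 in these lists, in the order above. By edgeR, 4 of them had an unadjusted p under 0.05, a larger share than the 17.0% over all tested transcripts. All 4 were higher with Mic-628: Fabp4 (log2 fold change 0.91), Krt8 (0.49), Csf1r (0.21) and Cd68 (0.18). Whether the fall of the 5 called fibroblast markers had a part in the results below was not tested.

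With Mic-628, Rarg rose by 29.5%. Rara fell by 12.3%, Cyp26b1 fell by 19.7% and Vdr fell by 27.4%. The fall of Vdr was uneven between batches, and those of Vdr and Cyp26b1 were lost under several other settings. The RXR genes Rxra and Rxrb, the binding proteins Crabp1 and Crabp2, and Thrb were not called. Rarb was close to absent in both groups and could not be tested. Thus 9 of the 10 genes passed the filter on low counts, 1 was called higher, 3 lower and 5 were not called, at an adjusted p under 0.05 by edgeR's quasi-likelihood test. Over all 17128 tested transcripts, 4.37% were called, 2.13% higher and 2.25% lower. Because the genes were chosen with these differences known, nothing is read from their count. The median log2 fold change was -0.04 over the 9 genes and -0.0040 over all tested transcripts. In bulk RNA, a change in the RNA per cell and a change in the share of cells that express a gene cannot be told apart.

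**Figure D1:**
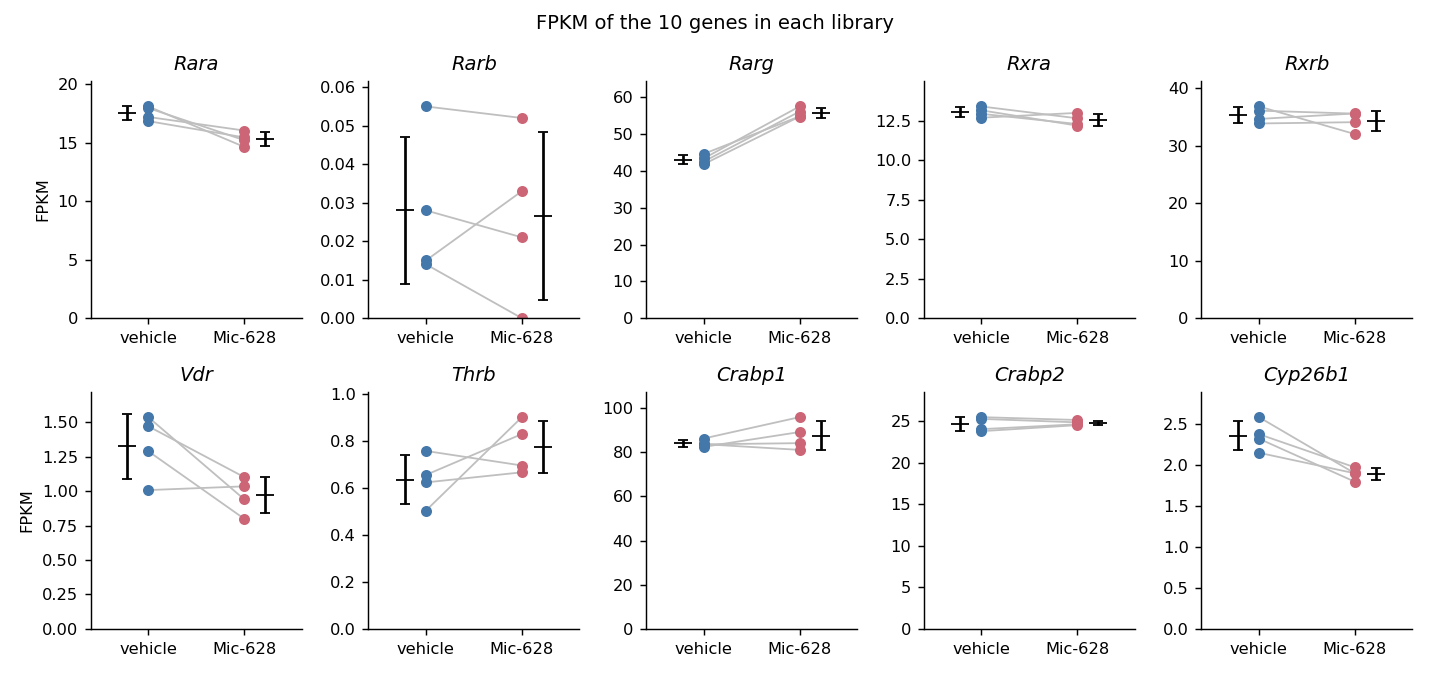
FPKM of each of the 10 genes (y axis, from 0, a separate scale for each gene) with vehicle (blue) and Mic-628 (red); points are libraries, grey lines join libraries of the same batch, and black marks give the mean and SD of 4 libraries. The Rarg points with Mic-628 all lie above those with vehicle, those of Rara and Cyp26b1 all lie below, and the Vdr points overlap.

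The 10 genes spanned a wide range of levels, compared here by FPKM because it corrects for length. Averaged over the 8 libraries, Crabp1 was highest at 85.8 FPKM (range 81.1 to 96.0), followed by Rarg at 49.5 (41.8 to 57.5), Rxrb at 34.9 (32.0 to 36.8) and Crabp2 at 24.7 (23.8 to 25.5). Next came Rara at 16.4 FPKM (14.6 to 18.1) and Rxra at 12.8 (12.2 to 13.4). The lower members were Cyp26b1 at 2.13 FPKM (1.80 to 2.59), Vdr at 1.15 (0.799 to 1.54), Thrb at 0.705 (0.504 to 0.902) and Rarb at 0.027 (0.00 to 0.055). The only neighbours in this order whose ranges over the 8 libraries overlapped were Vdr and Thrb. The cells thus held transcripts of both binding proteins, RAR transcripts of the alpha and gamma type and RXR transcripts of the alpha and beta type. Rxrg, the remaining RXR gene, had 1 count in 1 library.

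Among the RAR genes, Rarg (transcript ENSMUST00000063339.14, mm39 chromosome 15, 102143375 to 102154935, minus strand, 2703 exonic bases) encodes the receptor known for its prominence in skin and cartilage. Its levels with vehicle were 43.4, 44.6, 42.6 and 41.8 FPKM in replicates 1 to 4, and with Mic-628 they were 57.5, 54.8, 56.1 and 54.8 FPKM. Every Mic-628 library was above every vehicle library, and the nearest values of the groups were 44.6 and 54.8 FPKM. The mean went from 43.1 ± 1.20 to 55.8 ± 1.30 FPKM (SD, n = 4 each). This is a log2 fold change of 0.37 (SE 0.033, 95% interval 0.31 to 0.44; edgeR adjusted p = 2.01e-08). Within batches the log2 ratio of CPM (counts scaled to the library's total over tested transcripts, with TMM factors) was 0.41, 0.29, 0.40 and 0.39. By p, Rarg stood at place 28 of all tested transcripts. By size, 173 of the 749 called transcripts had a larger absolute log2 fold change, and the median over called transcripts was 0.21. It was called under all 24 other fits, with adjusted p up to 0.00106. An opposite-strand transcript spans the gene and had 5.5 to 15.5 counts per library, against 2557.5 to 3713.5 for Rarg.

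Rara (ENSMUST00000107474.8, mm39 chromosome 11, 98818644 to 98864988, plus strand, 2363 exonic bases), the widely expressed paralog, moved the other way. It had 18.1, 17.2, 18.0 and 16.8 FPKM with vehicle and 14.6, 16.0, 15.2 and 15.4 FPKM with Mic-628. These groups did not overlap either, but the gap was narrow, from 16.0 to 16.8 FPKM. Its log2 fold change was -0.19 (SE 0.042, 95% interval -0.28 to -0.10; edgeR adjusted p = 0.00773), and Rara was lower in 4 of 4 batches. The call was lost when batch 3 was left out (edgeR adjusted p = 0.109), in DESeq2 with the batch as a block (adjusted p = 0.212) and in limma-trend with no FPKM filter (adjusted p = 0.0918). A transcript on the opposite strand inside Rara had 56.5 to 74.5 counts per library, against 679 to 957.5 for Rara, and was not called.

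Groups that do not overlap in CPM were found for 3 of the 9 tested genes, Rarg, Rara and Cyp26b1, and for 10.7% of all tested transcripts. Because Rarg rose and Rara fell, the make-up of the RAR transcripts differed between the groups. Rarg made up 70.3% to 72.1% of the summed RAR FPKM with vehicle and 77.3% to 79.7% with Mic-628, and Rara made up 27.8% to 29.7% and 20.3% to 22.6%. The ratio of Rarg to Rara FPKM was 2.46 ± 0.101 under vehicle and 3.65 ± 0.219 under Mic-628 (SD, n = 4 each). Summed RAR FPKM was 60.7 ± 1.42 under vehicle and 71.2 ± 0.819 under Mic-628 (SD, n = 4 each). These are descriptions with no test. The transcripts of Rara and Rarg in the GENCODE M21 reference share 0 runs of 50 bases, and the longest run they share is 24 bases.

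**Figure D2:**
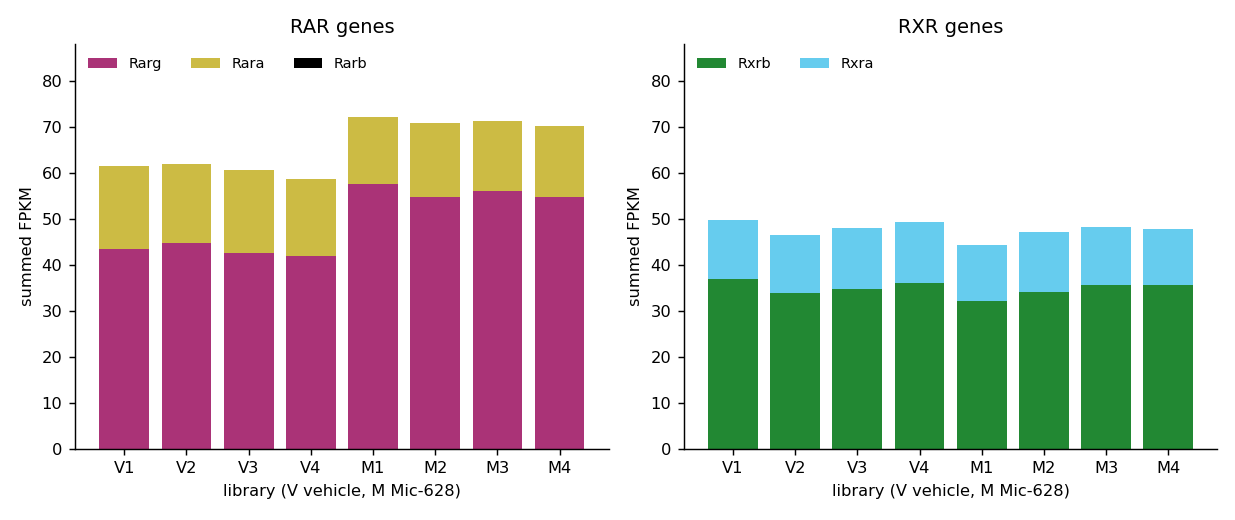
Summed FPKM (y axis, from 0) of the RAR genes (left) and the RXR genes (right) in each library, stacked by gene; V1 to V4 are vehicle and M1 to M4 Mic-628 replicates. Rarg takes 70.3% to 72.1% of the RAR bar with vehicle and 77.3% to 79.7% with Mic-628, Rarb is too low to see, and the RXR bars overlap between the groups.

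Rarb (ENSMUST00000063750.8, mm39 chromosome 14, 5894220 to 6038924, plus strand, 3093 exonic bases) is the RAR gene best known as a direct target of retinoic acid. The vehicle libraries held 1, 4, 1 and 2 counts of it and the Mic-628 libraries 2, 4, 0 and 1.5. These counts are too few to tell the groups apart, and no fold is given. At its 3′ end the gene overlaps Top2b on the opposite strand, which had 2241.5 to 2806.5 counts per library, so even the few Rarb counts are uncertain.

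The 250 bases before the RefSeq start site (build GRCm38.p6) are printed for Rarb, which carries the textbook retinoic acid response element, and for Rarg and Vdr, called members whose RefSeq start lies within 14 bases of the start of the counted transcript in GENCODE M21. The Rarb window is on the minus strand in that build, while the deposited mm39 table lists the gene on the plus strand, and its start lies 67 bases inside the GENCODE transcript. Capitals mark hexamers of the nuclear receptor type and, in Rarb, also the 5 bases between the paired hexamers. The hexamers were searched on both strands as AGGTCA and as its variants with the letters AGTTCA or with GGTTCA or else with GGGTCA. Each sequence runs 5′ to 3′ along the gene's strand. The windows lie at chr14:16575477-16575726 for Rarb, chr15:102246501-102246750 for Rarg and chr15:97908297-97908546 for Vdr, all on the minus strand.
Rarb: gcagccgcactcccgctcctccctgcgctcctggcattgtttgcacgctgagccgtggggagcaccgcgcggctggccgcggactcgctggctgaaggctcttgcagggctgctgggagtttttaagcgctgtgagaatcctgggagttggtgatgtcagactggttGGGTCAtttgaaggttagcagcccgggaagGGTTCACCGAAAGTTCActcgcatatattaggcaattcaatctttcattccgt
Rarg: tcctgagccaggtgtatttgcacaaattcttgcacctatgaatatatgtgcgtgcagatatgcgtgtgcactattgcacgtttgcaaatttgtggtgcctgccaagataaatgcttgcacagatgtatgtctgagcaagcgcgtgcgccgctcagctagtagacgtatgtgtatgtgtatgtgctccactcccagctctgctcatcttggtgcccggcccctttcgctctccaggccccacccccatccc
Vdr: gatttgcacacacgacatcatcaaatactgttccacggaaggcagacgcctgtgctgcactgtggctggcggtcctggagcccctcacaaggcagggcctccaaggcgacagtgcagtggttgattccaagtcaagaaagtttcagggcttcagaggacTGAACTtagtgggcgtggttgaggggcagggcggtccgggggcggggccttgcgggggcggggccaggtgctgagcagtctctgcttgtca

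In the Rarb window, 2 of the 3 hexamers form a direct repeat with 5 bases between them, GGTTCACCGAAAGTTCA, which begins 53 bases before the start. Such a repeat occurs in 0.088% of the 32851 RefSeq promoter windows of this length, and a single hexamer in 38.6%. The Rarg window holds none of the 4 hexamers, and the Vdr window holds 1, on the opposite strand, which begins 91 bases before the start. Neither window holds a direct repeat with 3, 4 or 5 bases between, nor CACGTG, which is in 6.02% of all windows. Of the windows not printed, only that of Thrb holds CACGTG, which begins 193 bases before the RefSeq start. That start lies 115 bases inside the GENCODE transcript of Thrb. GGGCGG, found in 32.7% of windows, occurs 3 times in the Vdr window and is not in the Rarg window. The Rarg window has 52.4% G and C, equal to the median of all windows, and the Rarb and Vdr windows have 58.0% and 61.2%. The matches are descriptions of letters, not of binding.

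The RXR genes encode the shared partner of RAR, VDR and TR. Rxrb (ENSMUST00000174299.9, mm39 chromosome 17, 34250826 to 34257373, plus strand) had 36.8, 33.9, 34.7 and 36.1 FPKM with vehicle and 32.0, 34.1, 35.6 and 35.6 FPKM with Mic-628. Rxra (ENSMUST00000077257.12, mm39 chromosome 2, 27567213 to 27652969, plus strand) had 12.9, 12.7, 13.4 and 13.1 FPKM with vehicle and 12.3, 13.0, 12.6 and 12.2 FPKM with Mic-628. The groups overlapped for both genes. The log2 fold change of Rxrb was -0.04 (95% interval -0.12 to 0.04; edgeR adjusted p = 0.652), and that of Rxra was -0.06 (95% interval -0.13 to 0.02; edgeR adjusted p = 0.449). On the linear scale the intervals reach from -8.01% to 2.69% for Rxrb and from -8.65% to 1.21% for Rxra. Mic-628 replicate 1 had the lowest Rxrb value, and without batch 1 the sign changed (log2 fold change 0.0075). Rxrb made up 72.1% to 74.0% of the summed RXR FPKM with vehicle and 72.3% to 74.5% with Mic-628. The ratio of summed RAR to summed RXR FPKM was 1.25 ± 0.0574 under vehicle and 1.52 ± 0.0739 under Mic-628 (SD, n = 4 each).

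Vdr (ENSMUST00000023119.15, mm39 chromosome 15, 97752306 to 97806191, minus strand, 4351 exonic bases) encodes the receptor for active vitamin D and lies on the same chromosome as Rarg. With vehicle it had 1.47, 1.54, 1.29 and 1.01 FPKM, and with Mic-628 it had 1.10, 0.940, 0.799 and 1.03 FPKM. Vehicle replicate 4 lay below Mic-628 replicates 1 and 4, so the groups overlapped. Its log2 fold change was -0.46 (SE 0.13, 95% interval -0.72 to -0.20; edgeR adjusted p = 0.0341). Within batches the log2 ratio was -0.42, -0.72 and -0.70 in batches 1 to 3 but 0.04 in batch 4. Vdr was read by only 80.5 to 156.5 counts per library. Its spread with vehicle, 17.7% of the mean, was above the 8.85% that counting alone would give. Leaving out any one of 5 libraries ended the call: vehicle replicates 1, 2 and 3 gave edgeR adjusted p of 0.0764, 0.159 and 0.0632, and Mic-628 replicates 2 and 3 gave 0.0871 and 0.156. So did leaving out batch 2 (0.270) or batch 3 (0.223), blocking on the batch in DESeq2 (adjusted p = 0.316) and limma-trend on log2(FPKM + 1) (0.248).

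Thrb (ENSMUST00000022304.12, mm39 chromosome 14, 4431611 to 4488167, minus strand, 6182 exonic bases), the beta receptor for thyroid hormone, had 0.504, 0.656, 0.624 and 0.758 FPKM with vehicle. With Mic-628 it had 0.902, 0.830, 0.667 and 0.696 FPKM, so the groups overlapped. Its log2 fold change was 0.27 (95% interval 0.02 to 0.53). Its unadjusted p was 0.0388 and its edgeR adjusted p 0.262, and 17.0% of all tested transcripts had an unadjusted p under 0.05. Batch 1 had the largest log2 ratio, 0.85, and batch 4 the lowest, -0.13. Without batch 1 the edgeR log2 fold change was 0.11, and without batch 4 it was 0.42. Thra, which encodes the alpha receptor, was far more abundant, at 22.2 ± 0.384 FPKM under vehicle and 34.2 ± 2.06 FPKM under Mic-628 (SD, n = 4 each; log2 fold change 0.62, edgeR adjusted p = 8.05e-11). The ratio of Thra to Thrb FPKM ranged from 28.7 to 44.6 with vehicle and from 36.1 to 49.8 with Mic-628.

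**Figure D3:**
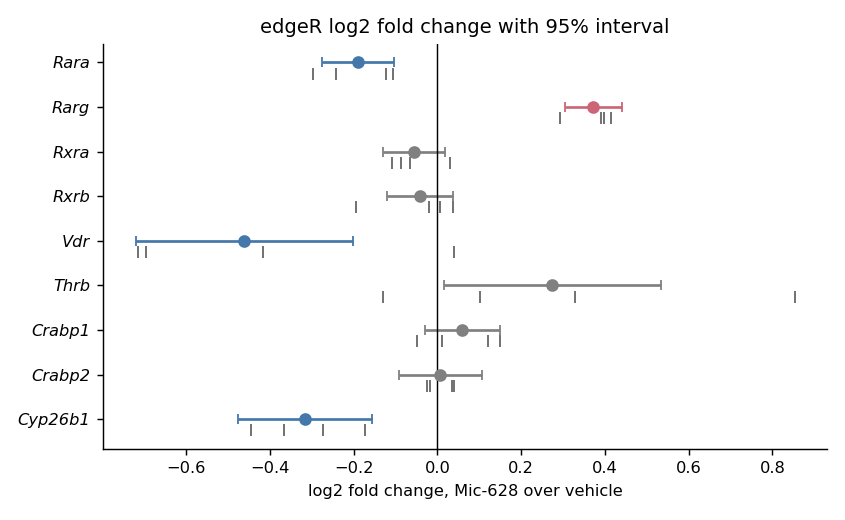
Log2 fold change of Mic-628 over vehicle (x axis) for the 9 tested genes; points and bars are the edgeR estimate and its 95% interval, red for called higher, blue for called lower and grey for not called, and ticks below each are the log2 CPM ratios of the 4 batches. Rarg lies at 0.37 with all 4 batches above 0, and Vdr at -0.46 with 1 of 4 batches above 0.

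The binding proteins gave the most abundant transcript of the set. Crabp1 (ENSMUST00000034830.9, mm39 chromosome 9, 54672032 to 54680394, plus strand, 795 exonic bases) had 82.5, 83.7, 86.3 and 83.6 FPKM with vehicle and 89.2, 81.1, 96.0 and 84.2 FPKM with Mic-628. Mic-628 replicate 3 was the highest library and replicate 2 the lowest. This gave a log2 fold change of 0.06 (95% interval -0.03 to 0.15; edgeR adjusted p = 0.525), and 0.0130 without Mic-628 replicate 3. Crabp2 (ENSMUST00000005019.6, mm39 chromosome 3, 87855973 to 87860683, plus strand, 924 exonic bases), whose product is known to pass retinoic acid to RAR, had the smallest log2 fold change of the 9 tested genes. It had 25.3, 23.8, 25.5 and 24.0 FPKM with vehicle and 24.9, 24.5, 25.2 and 24.6 FPKM with Mic-628. Its edgeR log2 fold change was 0.0075 (95% interval -0.09 to 0.11; edgeR adjusted p = 0.964), which spans from -6.21% to 7.73%. An opposite-strand transcript that overlaps Crabp2 had 53 to 75 counts per library, against 451 to 568 for Crabp2. The ratio of Crabp1 to Crabp2 FPKM was 3.41 ± 0.113 under vehicle and 3.53 ± 0.221 under Mic-628 (SD, n = 4 each).

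Cyp26b1 (ENSMUST00000168003.9, mm39 chromosome 6, 84548926 to 84570890, minus strand, 4157 exonic bases), which inactivates retinoic acid, had 2.15, 2.38, 2.59 and 2.32 FPKM with vehicle and 1.90, 1.97, 1.90 and 1.80 FPKM with Mic-628. All Mic-628 libraries were below all vehicle libraries. This was a log2 fold change of -0.32 (SE 0.077, 95% interval -0.48 to -0.16; edgeR adjusted p = 0.0166), and Cyp26b1 was lower in 4 of 4 batches. The edgeR adjusted p rose to 0.0534 or 0.0747 when vehicle replicate 2 or 3 was left out, and to 0.0512 or 0.0562 for Mic-628 replicate 3 or 4. It was 0.0869, 0.162 and 0.0669 when batches 2, 3 and 4 were left out in turn. Blocking on the batch in DESeq2 gave an adjusted p of 0.342, and limma-trend on log2(FPKM + 1) gave 0.111. Its paralogs were near the floor, Cyp26a1 with 50 counts and Cyp26c1 with 14 counts over all 8 libraries.

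**Figure D4:**
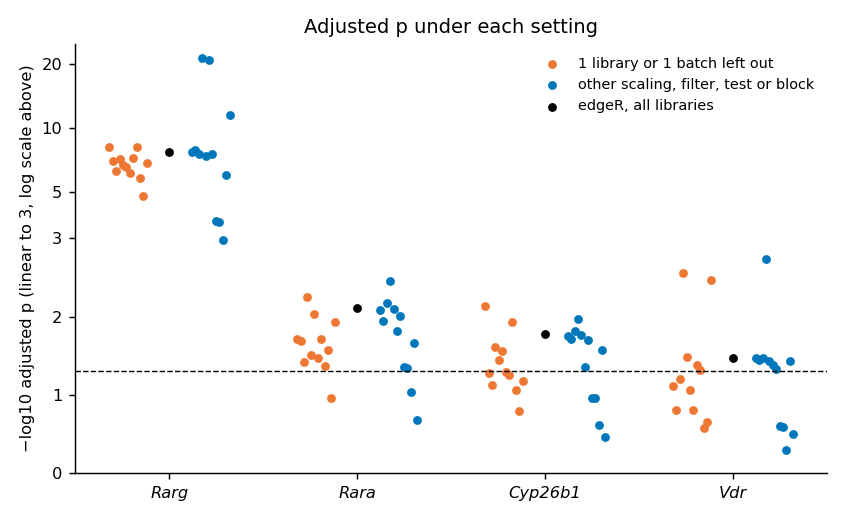
Adjusted p as −log10 (y axis, linear to 3 and log above) for the 4 called genes under each setting; black is edgeR with all libraries, orange leaves out 1 library or 1 batch, blue changes the scaling, filter, test or block, and the dashed line is 0.05. Rarg lies above the line in all 24 other fits, Rara in 21, and Cyp26b1 and Vdr in 13 each.

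Of 138 other genes listed for the retinoid, vitamin D and thyroid hormone pathways and their receptors' partners, 79 were tested, 6 rose and 3 fell. This is 11.4%, against 4.37% of all transcripts. Thra, Klf9 and Cyp1b1 were known to be called when the lists were written, so the share is a description. The median log2 fold change over the 79 was 0.0084.

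In retinoid uptake, storage and transport, 3 of 12 genes were tested, 1 rose and 0 fell. Fabp5, a fatty acid binding protein that also carries retinoic acid, rose from 104 ± 3.00 to 130 ± 4.21 FPKM (SD, n = 4 each; log2 fold change 0.33, edgeR adjusted p = 4.61e-07). Fabp5 has processed pseudogenes, so how its reads were assigned is uncertain. Dgat1, an acyltransferase gene, was not called (log2 fold change 0.03). Stra6, the retinol uptake receptor, had 30 counts over all libraries, and Lrat, which esterifies retinol for storage, had 0. Of 19 genes of retinoic acid synthesis and breakdown, 13 were tested, 1 rose and 1 fell, with 3 at an unadjusted p under 0.05 in edgeR. Adh7 was just over the threshold (log2 fold change 0.13, edgeR adjusted p = 0.0605). With scaling by library size alone, 3 of the list were called, 2 higher and 1 lower. Dhrs9, a retinol dehydrogenase, rose from 9.01 ± 0.426 to 11.2 ± 0.562 FPKM (SD, n = 4 each; log2 fold change 0.31, edgeR adjusted p = 7.55e-05). Cyp1b1, a cytochrome P450 that can oxidize retinol, fell from 14.5 ± 0.944 to 12.9 ± 0.304 FPKM (SD, n = 4 each; log2 fold change -0.17, edgeR adjusted p = 0.0168). The retinaldehyde dehydrogenases, which make retinoic acid, had few counts over all libraries, 40.5 for Aldh1a1, 5.5 for Aldh1a2 and 1 for Aldh1a3. The call of Cyp1b1 was lost when vehicle replicate 2, vehicle replicate 3 or Mic-628 replicate 4 was left out (edgeR adjusted p 0.0595, 0.0523 and 0.0617), and likewise for batch 2 or 3 (0.129 and 0.103). It was also lost in the 3 limma-trend fits (0.136 to 0.272) and when DESeq2 blocked on the batch (0.143).

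Of 30 retinoic acid target genes, 18 were tested, 1 rose and 0 fell. Tgm2, the tissue transglutaminase gene, rose from 28.3 ± 0.391 to 31.1 ± 1.04 FPKM (SD, n = 4 each; log2 fold change 0.14, edgeR adjusted p = 0.0187). Its call was lost when vehicle replicate 2, vehicle replicate 3 or Mic-628 replicate 3 was left out (edgeR adjusted p 0.0689, 0.0674 and 0.0960) or batch 3 was (0.223), in the 3 limma-trend fits (0.0642 to 0.117) and when DESeq2 blocked on the batch (0.206). Lamb1, the most abundant of the list, was not called (log2 fold change -0.09). Stra8 had 1.5 counts over all libraries, and Hoxb1 and Cdx1 had 0. The median log2 fold change of the tested targets was 0.02.

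In vitamin D uptake, activation and breakdown, 5 of 9 genes were tested and 0 were called by edgeR, DESeq2, limma-voom or limma-trend, with 1 at an unadjusted p under 0.05 in edgeR. The most abundant was Pdia3, a disulfide isomerase proposed as a membrane receptor for vitamin D (log2 fold change 0.05), followed by Dhcr7, a sterol reductase that uses up the vitamin D precursor (-0.13). Cyp24a1, which breaks down vitamin D and is its classic target, had 4 counts over all libraries. Of 20 vitamin D target genes, 10 were tested, 1 rose and 1 fell. Spp1, which encodes osteopontin, fell from 269 ± 4.41 to 214 ± 10.8 FPKM (SD, n = 4 each; log2 fold change -0.33, edgeR adjusted p = 5.29e-07). Atp2b1, a plasma membrane calcium pump gene, rose from 21.1 ± 0.485 to 24.3 ± 0.383 FPKM (SD, n = 4 each; log2 fold change 0.20, edgeR adjusted p = 0.000138).

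The list of 11 genes that holds the receptor gene Thra and the genes of thyroid hormone transport and deiodination had 4 tested. Thra was called, and the 3 tested transport and deiodination genes were not: Slc7a5, an amino acid transporter gene (log2 fold change 0.07), Slc16a10 and Dio2. The deiodinase genes Dio1 and Dio3 had no count. Of 16 thyroid hormone target genes, 6 were tested, 1 rose and 1 fell. Klf9, also a target of steroid hormones, rose from 19.1 ± 0.408 to 28.0 ± 0.586 FPKM (SD, n = 4 each; log2 fold change 0.55, edgeR adjusted p = 1.36e-11). Bcl3, a co-activator of NF-kB, fell with a log2 fold change of -0.22 (edgeR adjusted p = 0.0461). Blocking on the batch ended this call in edgeR (0.0631) and in DESeq2 (0.491). It was not called by DESeq2 without a block (0.0968) or in the 3 limma-trend fits (0.142 to 0.291). It was also lost on scaling by library size alone (0.0540), on leaving out batch 2, 3 or 4 (0.264, 0.313 and 0.0819) and on leaving out any one of vehicle replicates 1, 2 and 3 and Mic-628 replicates 2, 3 and 4 (0.0704 to 0.186).

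Of 11 further genes, Rxrg and 10 other partners of RXR, 4 were tested and 0 were called by edgeR, DESeq2, limma-voom or limma-trend, with 1 at an unadjusted p under 0.05 in edgeR. The most abundant were the oxysterol receptor gene Nr1h2 (log2 fold change -0.10, edgeR adjusted p = 0.101) and Nr4a1 (0.06, edgeR adjusted p = 0.528). All 19 coregulators, which join the receptors to chromatin enzymes, were tested, and 0 were called by the same tools, with 1 at an unadjusted p under 0.05. The corepressor gene Ncor1 had a log2 fold change of -0.01, and the most abundant members were the methyltransferase gene Prmt1 (-0.09) and Tbl1x (0.0010). The median over the 19 was 0.0046.

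**Figure D5:**
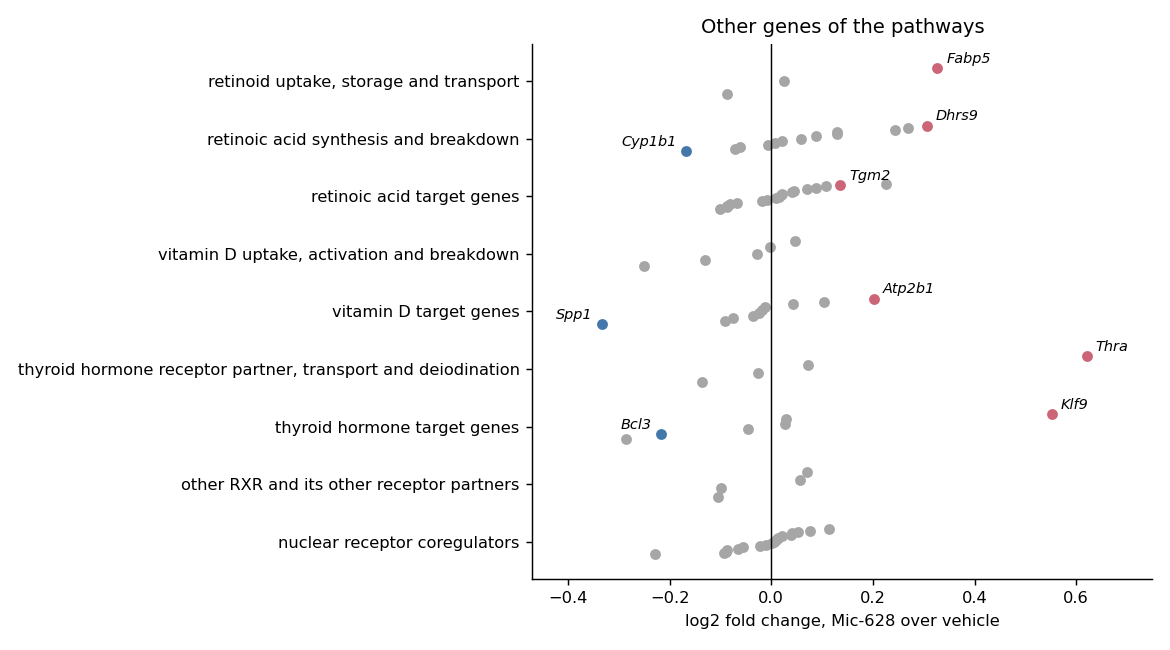
Log2 fold change of Mic-628 over vehicle (x axis) for each tested gene of the 9 pathway lists (y axis), red where called higher, blue where called lower and grey where not called. Thra (0.62) and Klf9 (0.55) lie farthest to the right and Spp1 (-0.33) farthest to the left among the called genes, and no coregulator is coloured.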

How the data were processed

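Poly(A) RNA of NIH3T3 cells was sequenced in 8 libraries, 4 per group. The submitters' processing notes name the mouse build GRCm39 (mm39) and the tools HOMER 4.11, STAR 2.7.10a and bcl2fastq, without saying what each did. The authors deposited exon read counts per canonical transcript, treated here as estimated counts because 39.2% of those above 0 are multiples of 0.5 rather than whole. The authors also deposited FPKM for the same transcripts, which differed by at most 5e-04 from values recomputed from the counts, exon lengths and header totals. Whether the counting used strand is not given in the sources used here. All columns were matched to samples by library name (0 unmatched).

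After rounding, the counts were analysed with edgeR 4.0.16 in R 4.3.3 (filterByExpr with minimum count 10, TMM, quasi-likelihood F test, no block), with Benjamini-Hochberg adjustment over the 17128 transcripts that passed. The standard error is the log2 fold change divided by the square root of F. Alternatives used DESeq2 1.42.0, limma 3.58.1 (voom, or trend on log2(FPKM + 1) and log2(FPKM + 0.1)), other scalings and filters, the batch as a block, and leaving out each library or batch. The test was also run on simulated data, drawn from the mean levels and fitted spreads of these data with independent libraries. Such data cannot show whether the spread between the real libraries is technical.

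The genes and lists were chosen with earlier results of these data known. Named are all 10 genes and, in each list, up to 4 members: called genes by smallest p, then, where fewer than 2 were called, the most abundant tested ones. Other list members named for low counts or known roles (Stra6, Lrat, the Aldh1a genes, Cyp26a1, Cyp26c1, Hoxb1, Cdx1, Stra8, Cyp24a1, Dio1, Dio3 and Ncor1) and the genes of the Rara neighbourhood were chosen after their values were seen. Values of some list members are not reported here. The labels call the shared number a batch, so it was used to pair the libraries. Over 10292 transcripts, deviations from group means correlated from -0.0949 to 0.0744 within pairs and from -0.117 to 0.141 between other libraries. The range within pairs thus lay inside that of the other libraries, and the ratios within batches rest on the shared number alone. Promoter windows are from RefSeq (GRCm38.p6), found for 9 of the 10 genes, and GENCODE M21 of the same build gave transcript starts. Python 3.11.15 and matplotlib 3.10.9 drew the figures.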

Additional observations from a re-analysis of the deposited data

Results flagged for a closer look

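Among 38 groups of 4 libraries checked, those of the 10 genes and of the called genes of the lists, 1 held a library far from the others, where chance alone gives about 1 in 20. It was Bcl3 with vehicle, at 19.4 CPM in replicate 4 against 20.4 to 20.6 CPM in the other 3 libraries.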

How the results depend on the processing

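Rarg kept its direction and its call in all 24 other fits (log2 fold change 0.36 to 0.40). Rara, Vdr and Cyp26b1 kept their direction in all 24 and were called in 21, 13 and 13 of them. Thrb, Rxra and Crabp1 kept their sign and were called in none. Leaving out 1 library or 1 batch gave 292 to 802 called transcripts, against 749, and 1 to 4 of the 10 genes, against 4. The lowest number of transcripts was without batch 3, where only Rarg of the 10 was called, and the highest without vehicle replicate 1. The batch as a replicate block in edgeR changed no call of the 10 genes (4 called), and in DESeq2 253 transcripts and 1 of the 10 genes were called. By limma-trend, 277 transcripts and 2 of the genes were called on log2(FPKM + 1), 273 and 2 on log2(FPKM + 0.1), and 170 and 1 with no FPKM filter. At an adjusted p under 0.01, 330 and 2 were called. The log2 fold change of Crabp2 was -0.01 without vehicle replicate 2, -0.0033 without vehicle replicate 4 and -0.0001 without batch 4, and that of Rxrb was 0.0075 without batch 1. Over the fits that left out 1 library or 1 batch, the range was -0.01 to 0.0243 for Crabp2, -0.0676 to 0.0075 for Rxrb, 0.11 to 0.42 for Thrb, 0.0130 to 0.0996 for Crabp1 and -0.0831 to -0.0372 for Rxra. Under the other scalings the median of all transcripts moved by under 0.01. The cause of these changes was not tested. Rarb, with at most 4 counts a library, could not be tested. Vdr and Thrb had about 100 counts a library.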

Other observations

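Rara begins 162.7 kb beyond the end of Thra on chromosome 11 of mm39. Between them, Gm57390 (log2 fold change 0.68) and Nr1d1 (1.52), the transcripts nearest Thra, rose. Msl1, Gm12359, Casc3, Rapgefl1 and Wipf2 were not called. Cdc6, a DNA replication licensing gene that ends 3.88 kb before Rara, went from 8.82 to 10.9 CPM and was at the threshold (log2 fold change 0.31, edgeR adjusted p = 0.04996). Rara, next to it, fell.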
